A study of Homo sapiens with 6 samples.

Results

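The nuclear genes for the subunits of the mitochondrial respiratory chain and of ATP synthase were examined in the oestrogen receptor-positive breast cancer line ZR-75-1 after treatment with abemaciclib, an inhibitor of the cell cycle kinases CDK4 and CDK6. Members were chosen by gene symbol among protein-coding genes (NDUFA, NDUFB, NDUFC, NDUFS, NDUFV and NDUFAB1 for complex I, SDHA to SDHD for complex II, UQCR and CYC1 for complex III, COX4 to COX8 for complex IV, and the ATP5F1, ATP5M and ATP5P families for ATP synthase), which gave 88 of the 60656 rows of the count table. A further 119 symbols matched the pattern but were not protein-coding and were left out. Complex I held 37 members, complex II 4, complex III 10, complex IV 18 and ATP synthase 19. NDUFA4 was placed in complex IV, where its protein is found, despite its symbol.

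Parental cells, the counterpart of an RB1 knockout line in the same series, had received 500 nM abemaciclib or an equal volume of its solvent DMSO for 4 days in serum-containing medium. Each group had 3 libraries of 3′ mRNA, in which reads come from transcript ends whatever the transcript length. The study describes its replicates as independent biological ones, and all came from a single cell line. Cells without RB1 were not analysed here.

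The respiratory chain passes electrons from NADH and succinate to oxygen. Complex I takes electrons from NADH and complex II from succinate, both hand them to ubiquinone, complex III passes them to cytochrome c, and complex IV reduces oxygen. Complexes I, III and IV pump protons across the inner mitochondrial membrane, and ATP synthase uses the return flow to make ATP. Complex II is made from nuclear genes alone, whereas the other complexes combine nuclear subunits with subunits encoded in mitochondrial DNA.

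The libraries held between 3317860 and 4013156 counts. Where a gene had 0 counts, a level of 3 counts could have been missed by counting error, equal to 0.740 to 0.909 CPM depending on the library. CPM are counts scaled to a common library total with TMM, a factor that aligns the bulk of the genes between libraries. The luminal markers KRT8, KRT18, KRT19, ESR1, GATA3, FOXA1 and EPCAM were all present, with group means between 121.5 and 4280 CPM. Of the markers of other cell types, KRT5, KRT14, TP63, COL1A2, PDGFRB, PECAM1, PTPRC and CD3E were at 0 in every library, and COL1A1 stood at 13.1 ± 2.68 CPM with DMSO and 12.5 ± 2.67 CPM with abemaciclib (SD, n = 3 each). VWF reached at most 1.51 CPM, in abemaciclib replicate 1, and CD68 was at 0.297 CPM in DMSO replicate 2 and at 0 elsewhere. Both had too few counts for a test. Abemaciclib replicate 3 stood apart for the respiratory genes: it was the highest library of its group for 54 of the 80 members tested (67.5%), against 35.8% of all genes tested. DMSO replicate 1 was the highest of its group for 43 of the 80 members (53.8%), against 33.5% of all genes.

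Of the 88 members, 80 had enough counts for a test. With abemaciclib 13 members rose and 6 fell, while 61 did not pass the threshold of 0.05 on the adjusted P (edgeR's quasi-likelihood test, adjusted over the 10863 genes tested by the Benjamini–Hochberg method). The 19 called members were 23.8% of those tested, close to the 25.7% called among all genes tested. Among all genes 12.5% were called higher and 13.3% lower. The log2 fold changes (abemaciclib over DMSO) of the 80 members ran from −0.58 to 0.68 with a median of 0.048, against −0.0018 for all genes, and 46 of them were above 0 and 34 below. Among called members the size of the log2 fold change lay between 0.28 and 0.68. In bulk RNA, fewer cells with a transcript and less of it per cell cannot be told apart. For 16 of the 19, every abemaciclib library lay on one side of every DMSO library (84.2%), against 96.3% of all called genes. Over all tested genes, called or not, this held for 29 of the 80 members (36.2%) and for 39.1% of genes. The balance between rises and falls depended on single libraries. Without abemaciclib replicate 3 the counts were 11 higher and 14 lower, when 26.2% of all genes were called. Without DMSO replicate 3 they were 7 higher and 3 lower, when 20.5% of all genes were called, and without abemaciclib replicate 2 they were 13 higher and 3 lower, when 20.4% were.

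**Figure D1:**
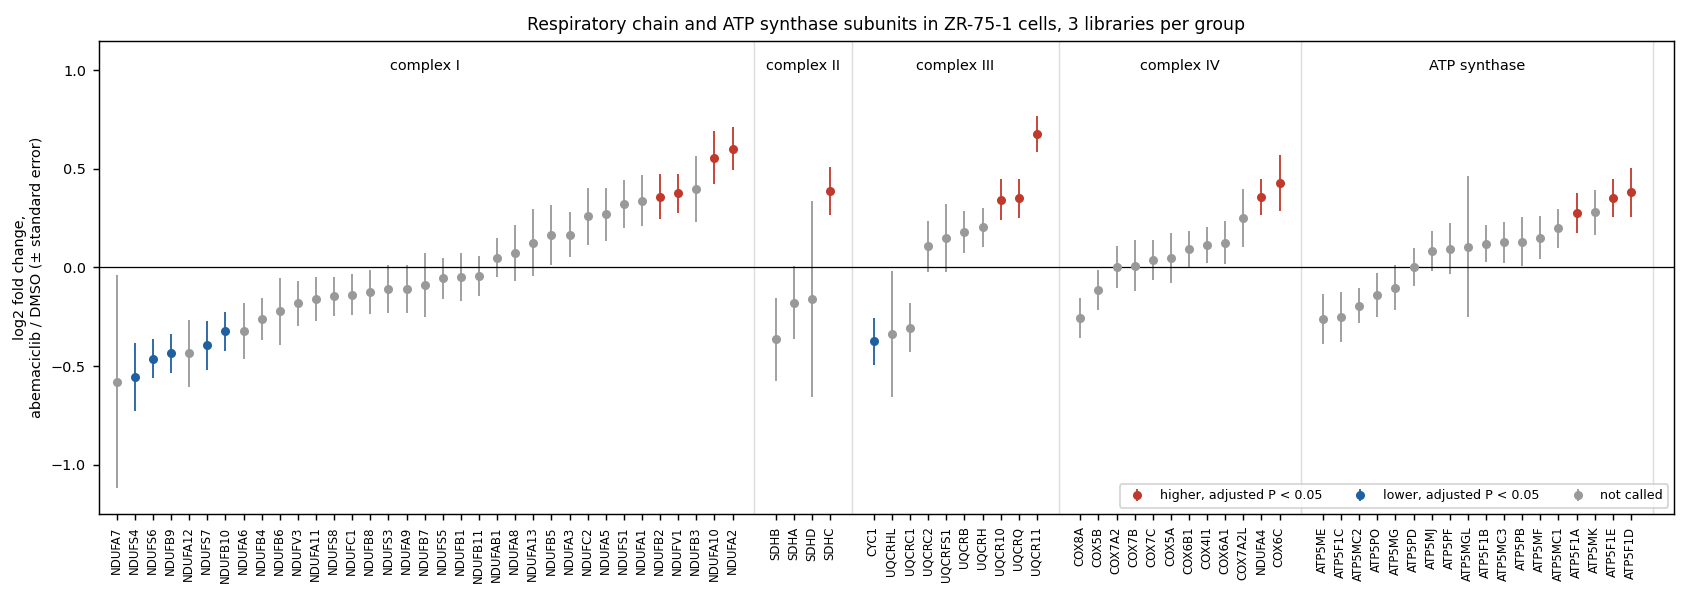
Log2 fold change of 79 tested subunit genes (abemaciclib over DMSO, vertical axis, bars showing the standard error), ordered within each complex along the horizontal axis. Red points are members called higher, blue points members called lower and grey points members that were not called. Complex I holds 4 red and 5 blue points, and complexes II, IV and ATP synthase hold red and grey points alone.

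Complex I showed calls in both directions. Of its 36 tested members 4 rose (NDUFA2, NDUFA10, NDUFV1 and NDUFB2) and 5 fell (NDUFS4, NDUFS6, NDUFB9, NDUFS7 and NDUFB10), with a median log2 fold change of −0.073 over all 36. The calls were 25% of those tested, close to the 25.7% of all genes. Among the core subunits that carry the redox centres, 1 of 6 tested rose and 1 fell, and among the accessory subunits around them 3 of 30 rose and 4 fell. The accessory subunits had a median of −0.073 and the core subunits −0.046.

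NDUFV1 (chromosome 11 from 67605653 to 67612554 of GRCh38) encodes the flavoprotein that binds FMN and accepts electrons from NADH. Its levels were 204, 207 and 215 CPM in DMSO replicates 1 to 3 and 286, 264 and 261 CPM in abemaciclib replicates 1 to 3, so that every treated library was above every control. The log2 fold change was 0.38 ± 0.10 (SE, adjusted P = 0.0047), a 1.30-fold rise. NDUFS7 encodes the iron–sulfur subunit closest to the site where ubiquinone binds, and it moved the other way. It gave 107, 105 and 135 CPM with DMSO and 85.01, 97.2 and 81.3 CPM with abemaciclib, without overlap, and a log2 fold change of −0.40 ± 0.13 (SE, adjusted P = 0.0203). This call was lost without DMSO replicate 3 (−0.27, the library with the highest level) or abemaciclib replicate 1 (−0.37). The last 300 bases of NDUFS7 overlap a gene on the opposite strand over 283 bases, and whether reads were counted by strand is not given in the sources used here.

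Other core subunits were not called. NDUFS1, which holds several iron–sulfur clusters, stood at 91.7, 77.2 and 95.7 CPM with DMSO and 105, 107 and 118 CPM with abemaciclib. These groups did not overlap, and the log2 fold change of 0.32 just missed the threshold (adjusted P = 0.0532, and 0.0475 with DESeq2's size factors in edgeR). NDUFS3 and NDUFS8, further core subunits of the peripheral arm, had log2 fold changes of −0.11 and −0.15. NDUFV2, the partner of NDUFV1 in NADH oxidation, could not be tested, with 4, 2 and 0 counts with DMSO and 1, 0 and 1 with abemaciclib. Its last 300 bases overlap another gene on the same strand over 251 bases, and its pseudogene held 98.8% of the counts of the pair, with means of 111.7 counts with DMSO and 100.3 with abemaciclib. The level of NDUFV2 is therefore uncertain.

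The accessory subunit NDUFA2 (chromosome 5 from 140638740 to 140647771), which has a thioredoxin-like fold and sits in the NADH-oxidising arm, showed the highest log2 fold change of complex I. It rose from 150.0, 156 and 127 CPM with DMSO to 200.3, 220.3 and 236 CPM with abemaciclib, with no overlap. The log2 fold change was 0.60 ± 0.11 (SE, adjusted P = 0.000117), and its end overlaps TMCO6 on the opposite strand over 124 bases. NDUFA10 (chromosome 2 from 239892450 to 240025743), a membrane-arm subunit related to nucleoside kinases, was tight in the control group at 60.3, 57.9 and 60.6 CPM and higher in every treated library at 93.8, 75.0 and 94.8 CPM. This gave a log2 fold change of 0.56 ± 0.13 (SE, adjusted P = 0.00249). NDUFB2, a small subunit of the membrane arm, gave 167, 145 and 130.2 CPM with DMSO and 197, 164 and 208 CPM with abemaciclib, where abemaciclib replicate 2 lay below DMSO replicate 1. The log2 fold change of 0.36 (adjusted P = 0.0218) was no longer called without DMSO replicate 2 (0.35), DMSO replicate 3 (0.28) or abemaciclib replicate 1 (0.33).

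The accessory subunits that fell came from both arms of the complex. NDUFS6 (chromosome 5 from 1801407 to 1816048), a zinc-binding subunit of the peripheral arm, was at 352, 316 and 359 CPM with DMSO and 229.6, 241 and 274 CPM with abemaciclib. All treated libraries lay below all controls, with a log2 fold change of −0.46 ± 0.10 (SE, adjusted P = 0.000828). NDUFS4, a peripheral-arm subunit whose loss in patients causes Leigh syndrome, gave 49.02, 51.98 and 61.8 CPM with DMSO and 36.0, 29.4 and 45.4 CPM with abemaciclib. The groups did not overlap, and the log2 fold change was −0.56 ± 0.17 (SE, adjusted P = 0.0163), a call lost without DMSO replicate 3 (−0.45) or abemaciclib replicate 2 (−0.41). NDUFB9, in the membrane arm, was at 321, 319 and 355 CPM with DMSO and at 256, 253 and 226 CPM with abemaciclib, again without overlap. The difference was −0.44 ± 0.10 on the log2 scale (SE, adjusted P = 0.00127). NDUFB10, a membrane-arm subunit with disulfide bonds, gave 330.4, 327 and 340.5 CPM with DMSO and 277, 239 and 282 CPM with abemaciclib, a log2 fold change of −0.32 (adjusted P = 0.0141). This call did not hold without DMSO replicate 3 (−0.31) or abemaciclib replicate 2 (−0.25).

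The other 23 accessory subunits were not called. NDUFA12, related to the assembly factor NDUFAF2, showed a log2 fold change of −0.44 with groups that did not overlap (adjusted P = 0.0591). NDUFB3, a small membrane-arm subunit, showed one of 0.40 with groups that did overlap (adjusted P = 0.0823). NDUFA1 stood at 281, 243 and 214 CPM with DMSO and 258, 270.4 and 407 CPM with abemaciclib, and only abemaciclib replicate 3 of that group was above all controls. NDUFAB1, the mitochondrial acyl carrier protein, had a log2 fold change of 0.048. NDUFA7 had the lowest measured level of the tested members, with a mean of 2.99 CPM over the 6 libraries, and its log2 fold change of −0.58 carried a standard error of 0.54. Its last 300 bases overlap another gene on the same strand over 172 bases, so its level is uncertain. Leaving out abemaciclib replicate 3 raised the number of complex I members called lower from 5 to 8, by adding NDUFA12 (−0.55), NDUFA6 (−0.53 against −0.32 with all libraries) and NDUFB4 (−0.33 against −0.26). Leaving out DMSO replicate 3 or abemaciclib replicate 2 lowered it to 3.

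**Figure D2:**
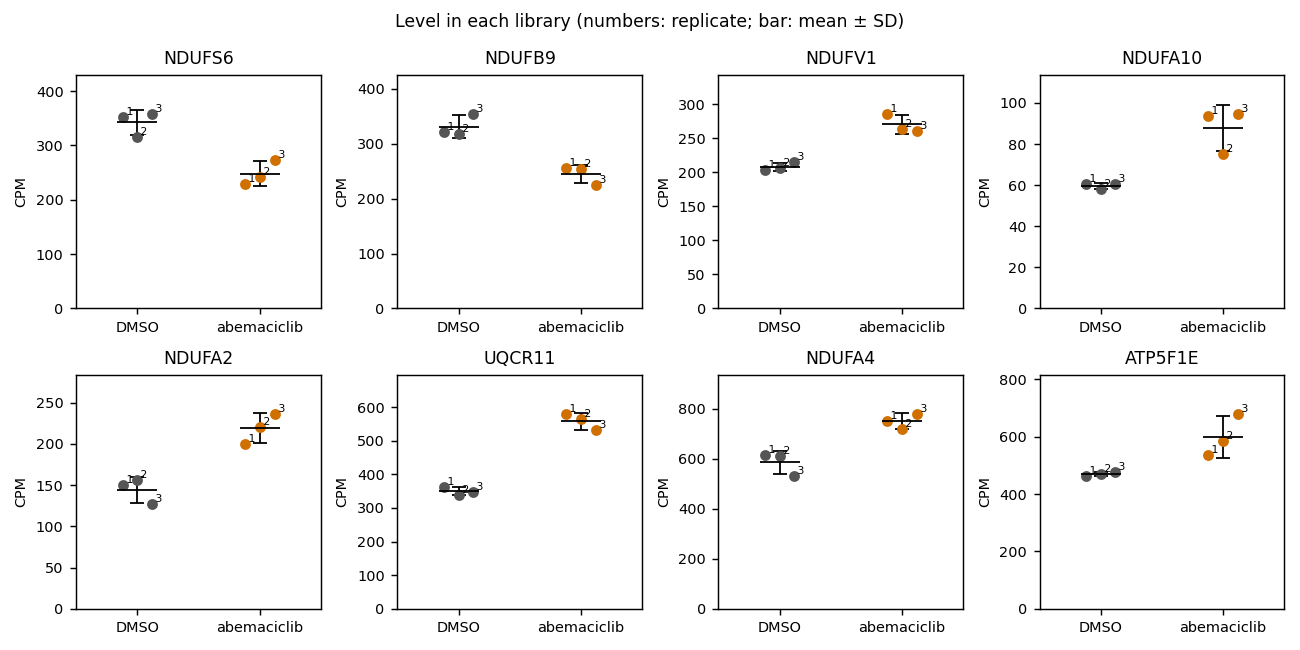
CPM in each library (vertical axes, starting at 0) of the 8 members whose calls held under every alternative, with DMSO libraries in grey, abemaciclib libraries in orange, the replicate number beside each point and bars showing mean ± SD over 3 libraries. In each panel the groups do not overlap, with NDUFS6 and NDUFB9 lower and the other 6 higher in the abemaciclib libraries.

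Promoter windows from RefSeq (GRCh38.p14, from 250 bases before to 50 after the gene start) were matched for 69 of the 88 members. Among called members, 9 of the 13 that rose and 4 of the 6 that fell had a matched window. The windows of NDUFS6 (chr5:1801157-1801456, plus strand) and NDUFS7 (chr19:1383657-1383956, plus strand) are shown because, among called subunits with a window, these held matches to more than 1 of the motifs searched. The motifs belong to regulators of respiratory or cell cycle genes. The window of NDUFS4 held a single match, to the YY1 motif at position 21, and is not shown. Capitals mark GCGCATGCG on either strand (the motif of NRF1, nuclear respiratory factor 1), TTTGGCGC (an E2F motif) and AAGATGGCG (a YY1 motif). In NDUFS6 the E2F match began at position −67 and the NRF1 match at −46, counted from 0 at the gene's first base. In NDUFS7 the NRF1 match began at −74 and the YY1 match at 17.
NDUFS6: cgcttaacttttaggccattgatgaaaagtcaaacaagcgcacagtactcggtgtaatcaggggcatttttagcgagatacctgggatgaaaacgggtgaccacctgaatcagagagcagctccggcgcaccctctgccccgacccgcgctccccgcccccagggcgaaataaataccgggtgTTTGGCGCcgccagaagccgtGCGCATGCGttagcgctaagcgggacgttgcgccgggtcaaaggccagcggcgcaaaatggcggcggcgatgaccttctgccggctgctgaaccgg
NDUFS7: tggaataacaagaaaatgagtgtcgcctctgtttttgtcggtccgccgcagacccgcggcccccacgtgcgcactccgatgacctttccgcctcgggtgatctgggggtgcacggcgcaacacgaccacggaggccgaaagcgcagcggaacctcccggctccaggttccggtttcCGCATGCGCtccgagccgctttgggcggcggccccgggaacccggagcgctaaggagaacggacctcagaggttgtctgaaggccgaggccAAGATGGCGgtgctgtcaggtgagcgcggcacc

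Complex II, the succinate dehydrogenase that also works in the citric acid cycle, had 4 members, all tested, of which 1 rose (25%, against 25.7% of all genes called) and 3 were not called. The called member was SDHC, one of the membrane anchors, at 279.6, 265 and 197 CPM with DMSO and 302, 283 and 385 CPM with abemaciclib. All treated libraries were above all controls, by the narrow margin between DMSO replicate 1 and abemaciclib replicate 2, and the log2 fold change was 0.39 ± 0.12 (SE, adjusted P = 0.0191). This call was lost with the replicate number as a block (adjusted P = 0.0560), without DMSO replicate 3 (0.25) and without abemaciclib replicate 3 (0.24), so it rested on these libraries. SDHA, the flavoprotein that oxidises succinate, had a log2 fold change of −0.18, and its groups overlapped. SDHB, the iron–sulfur subunit, stood at 28.1, 24.1 and 23.02 CPM with DMSO and 21.5, 19.7 and 17.3 CPM with abemaciclib, without overlap, and its log2 fold change of −0.36 was not called (adjusted P = 0.22). SDHD, the other anchor, had few counts, a mean of 4.18 CPM, and a log2 fold change of −0.16 with a standard error of 0.50. SDHC had a far higher count than its partners, with a mean of 285 CPM over all libraries against a median of 29.1 CPM for the complex.

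Complex III had the highest share of calls. Of 10 tested members 3 rose (UQCR11, UQCRQ and UQCR10, all small subunits without redox centres) and 1 fell (CYC1), which is 40% of the complex against 25.7% of all genes, a difference that was not tested, and the median log2 fold change was 0.16. Summed over the complex, levels were 1940 ± 58.9 CPM with DMSO and 2363 ± 170 CPM with abemaciclib (SD, n = 3 each). The sums ran from 1890 to 2005 CPM in the controls and from 2217 to 2549 CPM in the treated libraries. They include the 3 members called higher. The median log2 difference from the mean of the DMSO libraries overlapped between the groups. It was 0.044, −0.026 and −0.026 in the DMSO libraries and 0.074, −0.025 and 0.35 in the abemaciclib libraries. UQCR11 (chromosome 19 from 1597169 to 1605473) showed the largest log2 fold change of all 80 tested members. Its levels were 363, 338 and 348 CPM with DMSO and 580.3, 564 and 531 CPM with abemaciclib, a wide gap beside the spread within each group. The log2 fold change was 0.68 ± 0.09 (SE, adjusted P = 1.5e-06), a 1.60-fold rise, and stayed between 0.65 and 0.71 when any single library was left out.

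UQCRQ, a small subunit next to cytochrome b, gave 443, 462 and 399.8 CPM with DMSO and 561, 493 and 610.1 CPM with abemaciclib, without overlap. The difference was 0.35 ± 0.10 on the log2 scale (SE, adjusted P = 0.00817), lost without DMSO replicate 3 (0.29). UQCR10, a small subunit beside cytochrome c1, gave 187, 169 and 188 CPM with DMSO and 229.6, 214 and 246 CPM with abemaciclib, also without overlap. This was a log2 fold change of 0.34 ± 0.10 (SE, adjusted P = 0.0129), lost without DMSO replicate 2 (0.29). CYC1, cytochrome c1 itself, went the other way, at 115, 107 and 124 CPM with DMSO and 98.02, 82.4 and 87.3 CPM with abemaciclib. All treated libraries were below all controls, with a log2 fold change of −0.37 ± 0.12 (SE, adjusted P = 0.0204). The call was lost without DMSO replicate 1 (−0.38, adjusted P = 0.0597), DMSO replicate 3 (−0.32) or abemaciclib replicate 2 (−0.32).

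The other catalytic and core members of complex III did not pass the test. UQCRFS1, the Rieske iron–sulfur protein, had a log2 fold change of 0.15. Of the large core proteins, UQCRC1 stood at 96.6, 98.3 and 92.1 CPM with DMSO and 68.98, 78.95 and 84.03 CPM with abemaciclib, without overlap (log2 fold change −0.31, adjusted P = 0.0709), and it was called lower when abemaciclib replicate 3 was left out (−0.37). UQCRC2 had a log2 fold change of 0.11, which was −0.10 without that library. UQCRB and UQCRH, the hinge protein, had log2 fold changes of 0.18 and 0.20, and the groups of UQCRH did not overlap. UQCRHL, an intronless copy of UQCRH with a near-identical sequence, held 10.1 CPM on average, and its log2 fold change of −0.34 is uncertain, since reads of the pair could be split between them.

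The promoter windows of UQCR11 (chr19:1605413-1605712, minus strand) and UQCRQ (chr5:132866392-132866691, plus strand) are shown because, among called members with a matched window, these had a match to CCGGAAGT. This is the motif of ETS factors such as GABPA, marked in capitals. The match began at −117 in UQCR11 and at −54 in UQCRQ. Both sequences are written in the direction of the gene.
UQCR11: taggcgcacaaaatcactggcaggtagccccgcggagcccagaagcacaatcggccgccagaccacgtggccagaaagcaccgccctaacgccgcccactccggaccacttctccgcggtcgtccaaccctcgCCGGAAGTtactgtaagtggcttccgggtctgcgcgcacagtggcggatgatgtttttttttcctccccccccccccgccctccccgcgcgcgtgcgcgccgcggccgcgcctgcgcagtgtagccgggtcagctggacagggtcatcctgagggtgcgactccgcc
UQCRQ: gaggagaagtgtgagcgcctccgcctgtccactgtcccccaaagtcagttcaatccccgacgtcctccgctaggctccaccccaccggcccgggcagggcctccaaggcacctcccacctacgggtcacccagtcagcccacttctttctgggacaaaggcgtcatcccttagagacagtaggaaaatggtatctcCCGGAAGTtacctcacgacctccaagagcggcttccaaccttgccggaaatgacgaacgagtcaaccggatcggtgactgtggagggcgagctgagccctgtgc

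In complex IV, cytochrome c oxidase, 12 of 18 members were tested, of which 2 rose (NDUFA4 and COX6C) and 10 were not called, with a median log2 fold change of 0.071. The calls were 16.7% of those tested, against 25.7% of all genes. The 6 untested members were isoforms of restricted tissues. COX4I2, COX6A2, COX7A1, COX7B2 and COX8C were at 0 in every library, and COX6B2 had 2 counts in DMSO replicate 1 alone. Their widely expressed counterparts COX4I1, COX6A1, COX6B1, COX7A2, COX7B and COX8A were all measured, between 139.1 and 630.7 CPM as group means. NDUFA4 (chromosome 7 from 10931943 to 10940153), a subunit of the mature oxidase, was the most abundant transcript of the complex. It gave 615, 610.1 and 531 CPM with DMSO and 753, 718 and 780.1 CPM with abemaciclib. All treated libraries were above all controls, and the log2 fold change was 0.36 ± 0.09 (SE, adjusted P = 0.00412).

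COX6C, a small membrane subunit, was at 334, 262 and 228 CPM with DMSO and 304, 317 and 487 CPM with abemaciclib. The groups overlapped, since DMSO replicate 1 lay above both of the lower treated libraries, and abemaciclib replicate 3 was far above the rest. The log2 fold change of 0.43 ± 0.14 (SE, adjusted P = 0.0234) fell to 0.18 without abemaciclib replicate 3 and was not called there. It was also not called without DMSO replicate 2 (0.39), without DMSO replicate 3 (0.31), with the replicate block (adjusted P = 0.0681) or with DESeq2 (adjusted P = 0.311). COX4I1, COX5A and COX5B, the nuclear subunits nearest the catalytic core, had log2 fold changes of 0.12, 0.047 and −0.12. For COX6A1, COX6B1 and COX7C the log2 fold changes were 0.13, 0.094 and 0.037. The log2 fold changes of COX7A2 and COX7B were 0.0025 and 0.010 with all libraries and −0.13 and −0.19 without abemaciclib replicate 3. COX7A2L, which links complexes III and IV into supercomplexes, showed a log2 fold change of 0.25 (adjusted P = 0.224). COX8A had the lowest value of the complex, with 320.5, 312 and 359 CPM against 308, 265 and 258 CPM. Its groups did not overlap, and the log2 fold change of −0.26 had an adjusted P of 0.0609, which crossed the threshold with total counts as the only scaling (0.0480), with a minimum of 10 counts per library, and without abemaciclib replicate 1 (−0.34, adjusted P = 0.0250).

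In ATP synthase 18 of 19 members were tested, of which 3 rose (16.7%, against 25.7% of all genes called in either direction) and 15 were not called, with a median log2 fold change of 0.11. The untested member, the read-through gene ATP5MF-PTCD1, was at 0 in every library. The 3 rises were in the F1 head, the catalytic part outside the membrane, which has 5 subunits. The F1 head had a median of 0.28, against 0.13 for the c ring, 0.049 for the peripheral stalk and 0.094 for the small membrane subunits, and whether these parts differ was not tested. Summed over the F1 head, levels were 1313 ± 31.3 CPM with DMSO and 1547 ± 108 CPM with abemaciclib (SD, n = 3 each).

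ATP5F1E (chromosome 20 from 59025475 to 59032345), the epsilon subunit of the central stalk, was tight among controls at 464, 470.2 and 476 CPM and higher in every treated library at 536, 586 and 679.6 CPM. Its log2 fold change was 0.35 ± 0.10 (SE, adjusted P = 0.00673), and its last 300 bases lie wholly over TUBB1 on the opposite strand. ATP5F1D, the delta subunit, gave 122, 141 and 124 CPM with DMSO and 193, 178 and 133 CPM with abemaciclib, where replicate 3 of the treated group fell inside the range of the controls. Its log2 fold change was 0.38 ± 0.12 (SE, adjusted P = 0.0225). The call was lost in 4 fits that left out a library (0.34 and 0.35 without DMSO replicates 1 and 3, 0.28 and 0.34 without abemaciclib replicates 1 and 2). ATP5F1A, the alpha subunit, gave 272, 247 and 255 CPM with DMSO and 288, 293 and 355 CPM with abemaciclib. The groups did not overlap, but the log2 fold change of 0.28 lay just inside the threshold (adjusted P = 0.047). It was not called under 8 of 13 alternatives, among them the replicate block (adjusted P = 0.103), total counts as the only scaling (adjusted P = 0.0586), no filter on low counts (adjusted P = 0.0520), and 5 fits that left out a library (0.31, 0.24 and 0.27 without DMSO replicates 1, 2 and 3, and 0.32 and 0.17 without abemaciclib replicates 2 and 3). ATP5F1B, the catalytic beta subunit, had a log2 fold change of 0.12, and ATP5F1C, the gamma subunit of the rotating stalk, one of −0.25, with an adjusted P of 0.161.

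The c ring, which turns in the membrane as protons pass, is made from a single mature peptide encoded by 3 genes. ATP5MC2, the most abundant ATP synthase transcript, stood at 811, 808 and 777 CPM with DMSO and 693, 668 and 734 CPM with abemaciclib. Its treated libraries were all below the controls, and its log2 fold change was −0.19 (adjusted P = 0.106). ATP5MC1 and ATP5MC3 had log2 fold changes of 0.20 and 0.13, and their groups overlapped. Summed over the 3 genes, levels were 1524 ± 69.7 CPM with DMSO and 1511 ± 27.5 CPM with abemaciclib (SD, n = 3 each). Among the small membrane subunits, ATP5MK, which takes part in pairing of the enzyme, showed a log2 fold change of 0.28 without overlap (adjusted P = 0.0782), and those of ATP5ME and ATP5MG were −0.26 and −0.10. Without abemaciclib replicate 3, ATP5ME (−0.48), ATP5F1C (−0.36), ATP5MG (−0.26) and ATP5MC2 (−0.23) were called lower and ATP5MC1 (0.29) higher.

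The median of each complex was also taken per library, as the log2 difference from the mean of the DMSO libraries. For complex I the medians were 0.037, 0.0069 and −0.048 in DMSO replicates 1 to 3 and −0.027, −0.070 and −0.014 in abemaciclib replicates 1 to 3, so the groups overlapped. For complex III they were 0.044, −0.026 and −0.026 against 0.074, −0.025 and 0.35, where only abemaciclib replicate 3 stood well away. Complex IV gave 0.076, −0.029 and −0.075 against 0.059, −0.0050 and 0.22. The same library was the highest treated one in complex IV and in ATP synthase, at 0.18 in the latter beside 0.0033 and 0.075 for the other treated libraries. The median of all genes tested lay between 0.0017 and 0.012 in the 6 libraries. Summed over all members, levels were 16740 ± 647 CPM with DMSO and 17610 ± 1221 CPM with abemaciclib (SD, n = 3 each), and the treated sums were 17121, 16717 and 19005 CPM. The members took 1.60% to 1.73% of all counts in the control libraries and 1.69%, 1.69% and 1.85% in the treated ones. The share taken by the mitochondrially encoded subunits was also highest in abemaciclib replicate 3, at 7.96% against 6.04% to 7.53% in the other libraries. The part of whatever sets this library apart in the results was not tested.

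**Figure D3:**
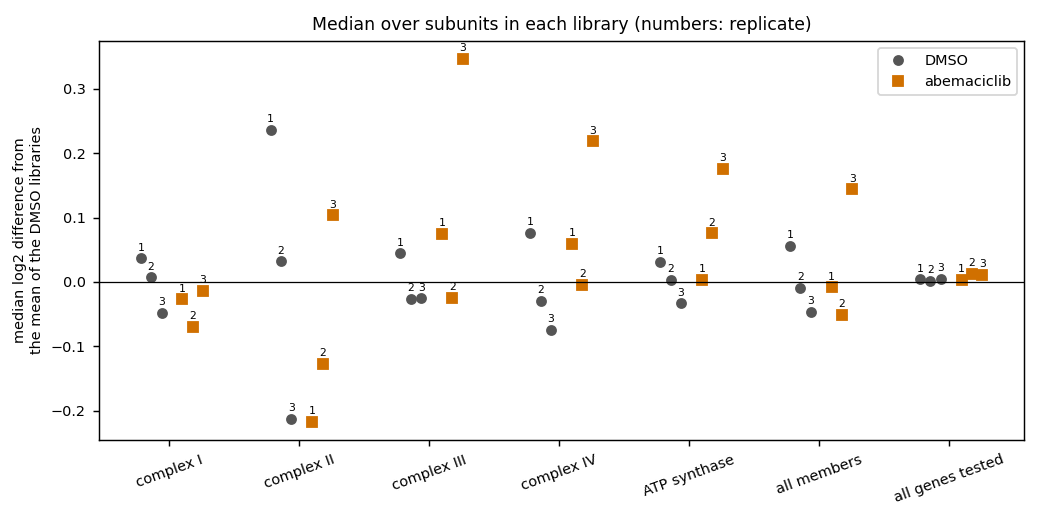
Median log2 difference from the mean of the DMSO libraries (vertical axis) over the tested members of each complex, all members and all genes tested (horizontal axis), with 1 point per library, the replicate number above it, DMSO as circles and abemaciclib as squares. Abemaciclib replicate 3 is the highest treated library for every complex, and at 0.35 it is highest for complex III, while all genes tested lie near 0.

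The 13 subunits encoded in mitochondrial DNA, the partners of these proteins in complexes I, III, IV and ATP synthase, were all tested, and 2 rose and 2 fell, with a median log2 fold change of −0.055. The calls were 30.8% of those tested, against 25.7% of all genes, a difference that was not tested. MT-ND6, a membrane subunit of complex I and the one subunit gene on the light strand, stood at 299, 335 and 265 CPM with DMSO and 96.5, 74.01 and 75.9 CPM with abemaciclib. It fell to a level that did not approach the controls in any library, with a log2 fold change of −1.87 ± 0.12 (SE, adjusted P = 7.05e-13). Without knowledge of the strand used in counting, its reads and those of transcripts from the other strand cannot be told apart. MT-CYB, cytochrome b of complex III, was lower at −0.38 on the log2 scale (adjusted P = 0.00554), a call lost without DMSO replicate 1 (−0.32) or abemaciclib replicate 2 (−0.27). MT-ND1, of complex I, was higher by 0.45 on the log2 scale (adjusted P = 0.00296), but its value was 0.26 without abemaciclib replicate 3 and it was not called with DESeq2 (adjusted P = 0.0978). MT-CO1, the catalytic subunit of complex IV, was higher by 0.24 (adjusted P = 0.044), a call that did not hold without any one of 5 of the libraries (0.16 without abemaciclib replicate 3, 0.22 without DMSO replicate 3, 0.23 without abemaciclib replicate 1, 0.26 without DMSO replicate 1 and 0.25 without DMSO replicate 2), with the replicate block (adjusted P = 0.102) or with at least 10 counts in every library (adjusted P = 0.0591).

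Of 62 assembly factors that build the complexes, 61 were tested, and 7 rose and 4 fell (18.0% called, against 25.7% of all genes). Calls lay in the lists for complexes III and IV. In complex III assembly 3 of 9 rose and 1 fell (44.4% called, against 25.7% of all genes, a difference that was not tested). With DESeq2, 2 were called higher and 1 lower. LYRM7, which guides the insertion of the Rieske protein, was at 53.7, 49.9 and 49.1 CPM with DMSO and 86.8, 91.04 and 87.0 CPM with abemaciclib, a clear separation with a log2 fold change of 0.80 ± 0.13 (SE, adjusted P = 3.25e-05). TTC19, which clears Rieske fragments from the finished complex, rose by 0.67 on the log2 scale (adjusted P = 0.000341). UQCC3, which acts early around cytochrome b, showed a log2 fold change of −0.60 (adjusted P = 0.00789), while UQCC1, with few counts, was higher by 1.23 (adjusted P = 0.0248) and lost its call with DESeq2 (adjusted P = 0.0592) and in 4 fits that left out a library (1.26 without DMSO replicate 1, 0.85 without DMSO replicate 2, 1.21 and 1.24 without abemaciclib replicates 1 and 2).

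In complex IV assembly 4 of 26 rose and 3 fell (26.9% called, against 25.7% of all genes), with a median of −0.15. CMC1, a factor for the maturation of the COX1 protein, was at 31.3, 27.03 and 35.4 CPM with DMSO and 19.4, 18.5 and 14.6 CPM with abemaciclib. Its groups did not overlap, and its log2 fold change was −0.84 ± 0.21 (SE, adjusted P = 0.00343). The copper carrier COX17 showed a log2 fold change of −0.39 (adjusted P = 0.0149, lost without DMSO replicate 1 at −0.32, abemaciclib replicate 1 at −0.29 or abemaciclib replicate 2 at −0.35). COX19, another factor in copper delivery, had one of −0.70 (adjusted P = 0.0156, lost without DMSO replicate 1 at −0.64 or abemaciclib replicate 2 at −0.59). The 4 factors called higher had log2 fold changes between 0.44 and 0.83, each lost its call in at least 1 fit that left out a library, and with DESeq2 0 were called higher, against 6 at an unadjusted P under 0.05 in edgeR. None of the 16 factors of complex I assembly passed edgeR's test (1 higher and 1 lower at an unadjusted P under 0.05, 0 with DESeq2), nor did any of the 3 tested factors of complex II (0 higher and 1 lower unadjusted, 0 with DESeq2). Of the 7 genes for ATP synthase assembly and inhibition, 0 passed (1 higher and 0 lower unadjusted, 0 with DESeq2), with a median of 0.20.

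Across the 69 matched promoter windows, motifs were searched on both strands as exact letters. GCGCATGCG (NRF1) was found in 10 member windows (14.5%), against 1.92% of all 35116 windows and 2.36% of the 22198 windows of protein-coding genes. CCGGAAGT (ETS) was also found in 10 (14.5%, against 4.14% and 5.33%), and AAGATGGCG (YY1) in 8 (11.6%, against 1.75% and 2.41%). The E2F motif TTTCCCGC stood in 3 windows (4.35%, against 1.63% and 1.99%) and TTTGGCGC in 2 (2.90%, against 0.652% and 0.815%), while TCAAGGTCA, the motif of ESRRA, was in 1 (1.45%, against 0.353% and 0.243%). Among windows of called members, NRF1 letters were in 0 of 9 that rose and 2 of 4 that fell, and in 8 of 51 that were not called. ETS letters were in 2 of 9 that rose, 0 of 4 that fell and 8 of 51 not called. YY1 letters were in 0 of 9, 2 of 4 and 6 of 51. These counts are descriptions of sequence in short windows, and no difference between the groups of members was tested.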

How the data were processed

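RNA was measured in 6 libraries, grouped by the treatment and replicate number in the labels. Per the labels and the study's methods, the authors aligned reads of 3′ mRNA libraries to hg38 with STAR 2.7.5b and counted them per gene with featureCounts 2.0.1. The deposited values are raw counts for 60656 genes, of which 40227 were at 0 in every library. Symbols were matched for 60401 identifiers and 255 had none. Whether counting used the strand is not given in the sources used here. Coordinates, end overlaps and pseudogenes are from GENCODE release 44 on GRCh38, a later release than the authors'. Near-identical copies and pseudogenes can take reads from a subunit: 50 members have 189 named pseudogenes, and those of 1 member, NDUFV2, held over 10% of the joint counts. The last 300 bases of 10 members overlap another gene on the same strand, and 0 of these 10 were called.

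Abemaciclib was compared with DMSO with edgeR 4.0.16 in R 4.3.3, by its two-sided quasi-likelihood test (glmQLFit and glmQLFTest) after filterByExpr and TMM, with P adjusted by the Benjamini–Hochberg method over 10863 genes and a threshold of 0.05. The standard error is the log2 fold change divided by the square root of F. CPM values use the TMM-scaled library sizes. Medians per library used log2 CPM with a prior count of 2. The biological coefficient of variation was 13.2%. No 2 libraries agreed within sampling noise. No molecular identifiers are described, so floors cover counting error only.

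Members and lists were chosen with earlier results of these data known. Genes were named by role (catalytic core, isoforms and copies), as the 3 largest rises and 3 largest falls among called members of each complex, and as the most abundant member. Other members, and all genes of other lists, were named after their values were seen. The study used DESeq2, here an alternative (1.42.0), next to other scalings and filters, pseudogene counts added to members, NDUFA4 counted with complex I, a replicate block and each library left out in turn. Promoter windows are RefSeq's, searched for exact letters. No list was tested as a set. The values of 1 tested member are not reported here or drawn in the plots of single genes, but they are part of all counts and medians.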

Additional observations from a re-analysis of the deposited data

How the results depend on the processing

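Of 227 recomputed counts and medians, 199 stayed within 1.5 times the count or 1 SD of the median and 28 did not. This SD is taken over the medians of the 3 abemaciclib libraries (0.074, −0.025 and 0.35 in complex III), so replicate 3 widens it. The complex III median of 0.070 without abemaciclib replicate 3 therefore counted as unchanged, against 0.16 with all libraries. Of 584 recomputed values of single members, 539 were counted as unchanged, having kept their side of the threshold. Another 34 lost a call, 8 gained one and 0 were called in the opposite direction. The other 3 were uncalled values that moved past 0 with a shift of more than 1 standard error. Uncalled values that passed 0 with a smaller shift are among the 539, such as SDHD (−0.16 with all libraries, 0.14 without DMSO replicate 1). Of the 19 called members, 8 kept their call in all 13 alternatives (NDUFA2, NDUFA10, NDUFV1, NDUFS6, NDUFB9, UQCR11, NDUFA4 and ATP5F1E), and of the 11 that did not, 8 lost it only with a library left out. Complex IV had 1 member called higher with DESeq2, with the replicate block and with NDUFA4 counted in complex I, and 1 called lower with total counts as the only scaling and with a minimum of 10 counts. Complex II had 0 called higher with the replicate block (edgeR).

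With each library left out in turn, members called higher numbered 7 to 13 and lower 3 to 14, while 18.8% to 26.2% of all genes were called. The ranges of higher and lower calls were 3 to 5 and 3 to 8 in complex I, 2 to 3 and 0 to 2 in complex III, 1 to 2 and 0 to 1 in complex IV, and 1 to 3 and 0 to 4 in ATP synthase, and complex II had 0 to 1 higher. Median log2 fold changes ranged from −0.084 to −0.043 in complex I, −0.31 to 0.054 in complex II (above 0 without DMSO replicate 1), 0.070 to 0.23 in complex III, −0.0006 to 0.14 in complex IV (below 0 without abemaciclib replicate 3) and 0.036 to 0.15 in ATP synthase. The cause was not tested. Same-numbered replicates did not deviate together (correlations of −0.043, 0.0070 and −0.089), so the numbers were not taken to pair the samples. The block left 10 members higher and 6 lower, and 22.3% of all genes called. With 3 libraries per group, calls near the threshold moved with single libraries, and the isoforms at 0 were not detectable at these depths. The level of NDUFV2 is uncertain through its pseudogene and an overlapping gene, and that of NDUFA7 through an overlapping gene. Counts on transcripts do not measure protein or respiration.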

Other observations

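Electron carriers between the complexes had 15 genes, all tested, of which 2 fell and 0 rose in edgeR (1 higher at an unadjusted P under 0.05, 0 with DESeq2), with a median log2 fold change of −0.12. The falls were 13.3% of those tested, the same as the 13.3% of all genes called lower, and 25.7% of all genes were called in either direction. COQ2, which attaches the isoprenoid tail in ubiquinone synthesis, was at 26.97, 32.1 and 21.8 CPM with DMSO and 11.5, 12.3 and 14.9 CPM with abemaciclib. Its groups did not overlap, and its log2 fold change was −1.06 ± 0.23 (SE, adjusted P = 0.000936). ETFB, a subunit of the flavoprotein that feeds electrons from fatty acid oxidation to ubiquinone, was at 119, 114 and 123 CPM with DMSO and 84.1, 73.5 and 86.5 CPM with abemaciclib. Its log2 fold change was −0.54 ± 0.12 (SE, adjusted P = 0.000909). CYCS, cytochrome c, was not called (log2 fold change −0.12).

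Of 16 regulators of respiratory genes and of mitochondrial DNA expression, 15 were tested, and 2 fell and 0 rose in edgeR (1 higher at an unadjusted P under 0.05, 0 with DESeq2). Here too the falls were 13.3% of those tested, as among all genes, of which 25.7% were called in either direction. GABPB1, the partner of the ETS factor GABPA, was at 22.04, 25.8 and 24.5 CPM with DMSO and 10.6, 12.1 and 12.7 CPM with abemaciclib, without overlap, with a log2 fold change of −1.03 ± 0.23 (SE, adjusted P = 0.00135). SSBP1, which coats single-stranded mitochondrial DNA, was at 182, 206 and 196 CPM with DMSO and 131, 136 and 139.7 CPM with abemaciclib, with a log2 fold change of −0.52 ± 0.10 (SE, adjusted P = 0.000382). NRF1 had few counts and was not called (log2 fold change −0.64, adjusted P = 0.275), and TFAM, the packaging factor of mitochondrial DNA, had one of −0.037. PPARGC1A was at 0 in every library.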
